A study of Mus musculus with 4 samples.

Results

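The Klhl genes encode the Kelch-like proteins, and the 36 genes of the deposited count table whose symbol is Klhl followed by a number are described here, out of 55291 features. They were chosen by name. The family was proposed for description with results of these data already known, among them a large deficit of Klhl25 after injection, so its values are a description and no test was run on them. RNA was sequenced from mouse zygotes, fertilised eggs before the first division, in 4 samples and 1 sample per group. The groups were zygotes injected with what the labels call an H3.3 MO with an MO control of their own, and zygotes injected with H3.3 S31A, also with a separate control. H3.3 is a histone H3 variant laid down outside DNA replication, MO in embryo work usually stands for morpholino, an antisense oligonucleotide, and S31A is the usual notation for serine replaced by alanine. The labels do not say what the control zygotes received, nor the strain or the number of embryos per sample.

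A Kelch-like protein joins a BTB domain, which binds the scaffold CUL3, to a BACK domain and a propeller of Kelch repeats that holds a substrate. CUL3 brings the RING protein RBX1 and an E2 enzyme to that substrate, which is then tagged with ubiquitin. The modifier NEDD8 switches the ligase on, and the COP9 signalosome removes it. In eggs and zygotes most protein turnover and translation run on stored maternal RNA, and several Kelch-like adaptors act on cell division, secretion or translation in other cells.

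The table held 2 count columns per sample, called libraries 1 and 2, with 5661621 to 13233371 counts each. The labels give 1 sample per group, and nothing says whether its 2 libraries came from separate pools of embryos. The libraries were not counted as replicates of a condition, so each comparison is of 1 sample with 1 sample. It has no replicate check. Levels are CPM, counts scaled with edgeR's TMM factors to a common library total, ratios are of counts summed per sample, and intervals are exact 95% intervals that cover counting error only. Mitochondrially encoded genes took 3.47% to 10.36% of counts. All 11 egg markers looked for were at 10 CPM or more in every sample. Of the cumulus and granulosa cell markers, 3 or 4 of 12 were detected per sample, and 2 or 3 were at 10 CPM or more. The 12 together summed to 59.3 to 209 CPM per library. Fshr, Foxl2, Amh, Has2, Ptx3 and Tnfaip6 had 0 counts in all samples. Of the sperm and testis markers, 2 or 3 of 8 were detected, none at 10 CPM. Both H3.3 genes were low in the MO injected libraries: H3f3b stood at 2.30 and 10.5 CPM there against 2199 and 1550 CPM in their control, and H3f3a at 8.04 and 52.4 CPM against 462 and 586 CPM. In a bulk sample, fewer embryos with a transcript and less of it per embryo cannot be told apart.

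The members lie on 16 chromosomes, 4 of them on the X, and their coding sequences run from 1479 to 2625 bases with a median of 1821. Klhl9 and Klhl34 have a single exon. Since a read aligner can place a read on a related gene, the coding sequences were set against all GENCODE M21 transcripts at 80% identity over 100 bases or more. A single pair of members passed, Klhl9 on chromosome 4 and Klhl13 on the X chromosome, with 1484 identical bases of 1814 aligned without gaps (81.8%). The stretch around their longest run of identical bases, which is 22 bases long, is shown because these are the most abundant members after Klhl8. Capitals mark the 16 bases that differ in these 120, and positions 894 to 1013 of the Klhl13 and 771 to 890 of the Klhl9 coding sequence are given 5′ to 3′ from GENCODE M21 transcripts on mm10.
Klhl13: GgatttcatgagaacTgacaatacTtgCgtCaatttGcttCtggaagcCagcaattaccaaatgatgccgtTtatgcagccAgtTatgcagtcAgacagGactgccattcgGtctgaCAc
Klhl9: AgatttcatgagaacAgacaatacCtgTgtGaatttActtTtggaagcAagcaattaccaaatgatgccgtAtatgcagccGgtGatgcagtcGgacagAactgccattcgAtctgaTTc
No run of 50 identical bases joined these genes. Klhl21 also matched a processed pseudogene, Gm14395, at 90.2% over 562 bases. In addition, 8 members share exon bases with another feature of the table. Klhl9 shares 661 bases with Gm26566 and Klhl32 118 bases with Gm11899, both on the opposite strand, while Klhl13 shares 108 bases with Gm14523 and Klhl15 64 bases with Mir7673. The sources used here do not give the strand setting of the counting, so reads in these stretches are uncertain.

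Of the 36 members, 14 reached 10 CPM in at least 1 sample (38.9%, against 16.2% of all features), and these carry the account below. Of the others, 9 had no count in any library: Klhl4, Klhl5, Klhl23, Klhl26, Klhl33, Klhl34, Klhl38, Klhl40 and Klhl41. Klhl40 and Klhl41 are known as muscle proteins. A count of 0 allows up to 3 counts, or 0.136 to 0.190 CPM in a summed sample. The remaining 13 stayed under 10 CPM in every sample. Klhl11 had 173 counts in S31A injected library 1 and 0 in library 2, and Klhl21, which works with Klhl9 and Klhl13 on the mitotic kinase Aurora B in human cells, had 0 and 204 counts in those libraries. Klhl7 had 166 counts in S31A control library 1 and 0 in library 2, and Klhl10, a testis gene needed for male fertility, had 47 counts in MO injected library 2 alone. Klhl42, whose protein is reported to target the microtubule-severing enzyme katanin in human cells, had 0 and 2 counts in the MO injected libraries against 25 and 72 in the MO control libraries. It had 0 and 159 counts in the S31A injected libraries against 109 and 27 in the S31A control libraries. Klhl14, Klhl18, Klhl29 and Klhl30 had at most 150 counts in any library, Klhl6 and Klhl35 at most 12, Klhl3 had 15 counts in MO control library 1, and Klhl31 had 1 count in all.

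Several members were counted in 1 library of a sample and absent from the other. In the S31A injected sample, 17 members reached 10 CPM in either library, and 5 of them had 0 counts in the other: Klhl11, Klhl21, Klhl22, Klhl29 and Klhl42. The share over all genes was 8.2%. In the S31A control the same held for 3 of 17, Klhl7, Klhl22 and Klhl29, against 8.39% of genes. In the MO injected and the MO control sample it held for none of 14 members each, against 3.61% and 0.735% of genes.

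Per length, Klhl8 was the most abundant member, with a mean level of 230.0 CPM per kilobase of exon over the 4 samples and 154 to 358 over the libraries. Its protein is reported to target rapsyn, a protein of the nerve-muscle synapse. Klhl8 ranked 223 of the 8981 features at 10 CPM or more, whose median level was 8.56 CPM per kilobase. Klhl9 and Klhl13 followed at means of 78.6 and 66.3 CPM per kilobase, and their library ranges overlapped, at 43.6 to 147 and 14.8 to 116. Klhl8 lay above Klhl9 in range without overlap. It was the only one of the 13 neighbouring pairs in this order that did so. Klhl2, Klhl28 and Klhl15 came next, at means of 11.6, 8.90 and 8.35 CPM per kilobase, which is close to the level of Cul3 at 10.3. The other 8 ran from 4.34 for Klhl36 down to 0.783 for Klhl20. These levels rest on exon lengths that include every annotated transcript, so a gene with long unused exons is understated.

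**Figure D1:**
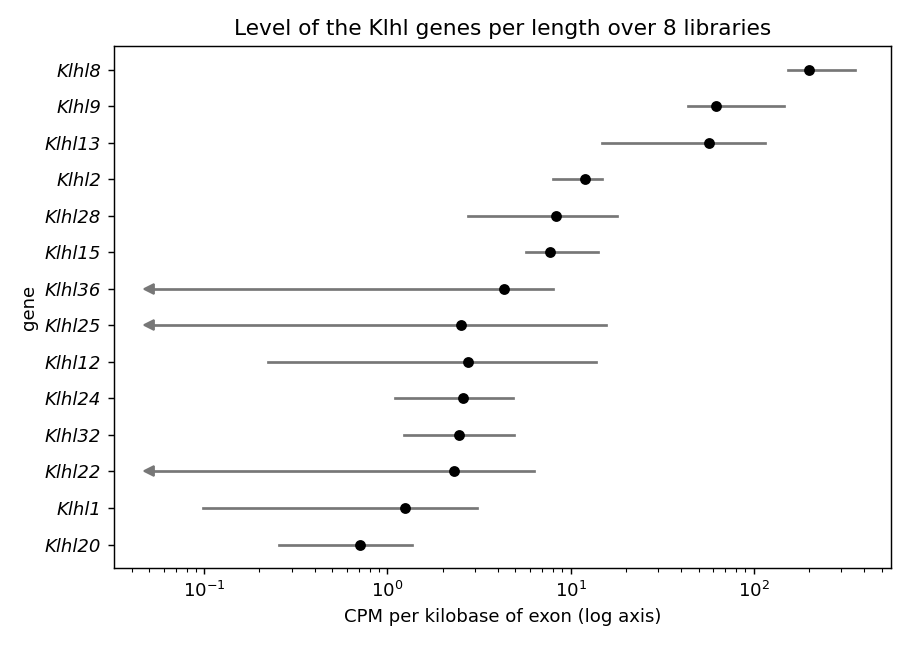
Level of the 14 Klhl genes per kilobase of exon, ordered by mean level over samples, on a log axis. Points are medians and lines the lowest to highest of the 8 libraries, and arrowheads mark genes with a library at 0. Klhl8 stands apart at the top, and all later neighbours overlap.

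Klhl8, Klhl9 and Klhl13 held 78.8% of the family's summed CPM in the MO injected sample and 68.7% in the MO control, and 78.5% in the S31A injected sample and 76.5% in the S31A control. All 36 members together summed to 2129 and 1443 CPM in the MO injected libraries against 1399 and 1378 CPM in the MO control libraries. They summed to 2673 and 2310 CPM in the S31A injected libraries against 1751 and 1547 CPM in the S31A control libraries. In both experiments the injected libraries lay above the control libraries, narrowly so in the MO experiment. Without Klhl8 and Klhl9 the other 34 members summed to 632 and 385 CPM in the MO injected against 587 and 511 CPM in the MO control libraries, which overlap, and to 1052 and 989 CPM in the S31A injected against 865 and 670 CPM in the S31A control libraries, which do not. The summed egg markers stood at 13476 and 11478 CPM in the S31A injected against 9485 and 9491 CPM in the S31A control libraries. Single egg markers were mixed there: Bmp15, Zar1 and Dppa3 lay higher without overlap, Zp2 and Padi6 lower, and the others overlapped. With MO the summed egg markers overlapped, at 11870 and 5622 CPM in the MO injected against 7302 and 9120 CPM in the MO control libraries. Mitochondrial genes took 7.13% and 9.59% of counts in the S31A injected against 9.65% and 10.36% in the S31A control libraries. The part of egg markers or mitochondrial genes in the family's level was not tested.

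**Figure D2:**
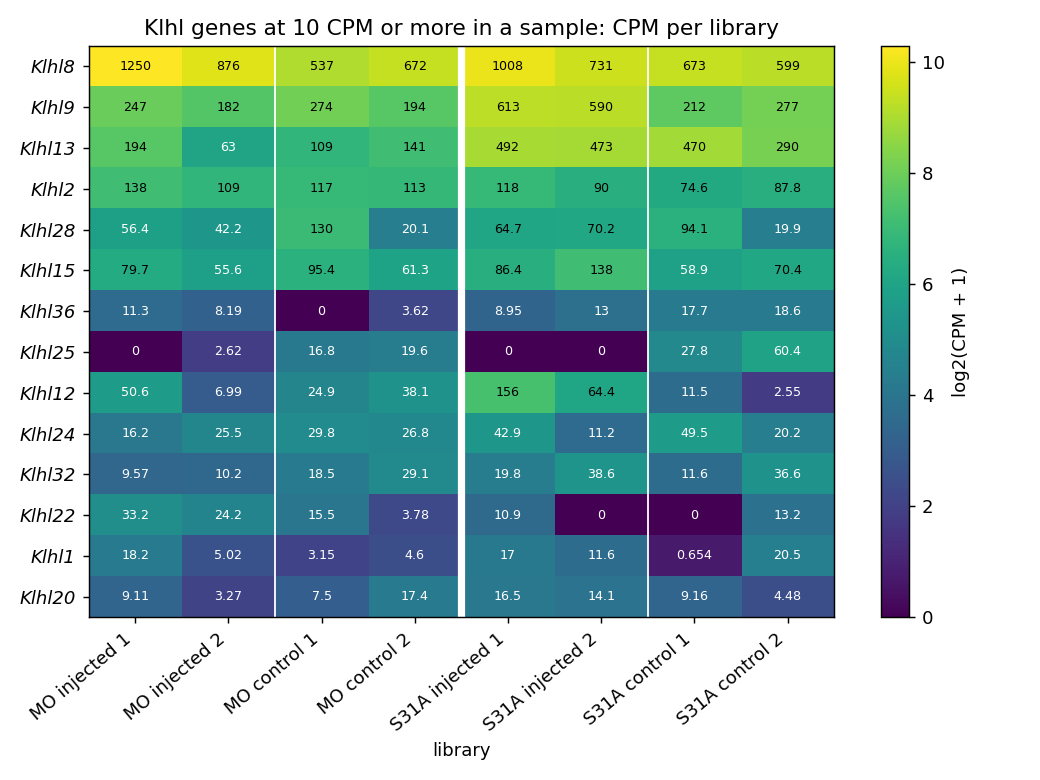
CPM of the 14 Klhl genes in each library, with colour on a log2(CPM + 1) scale. The wide white line divides the MO from the S31A experiment, and in each the injected libraries stand left of their control. Klhl25 is at 0 in 3 of the 4 injected libraries.

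The MO comparison sets the MO injected zygotes against their own control. Of the 14 measured members, 3 were at least 2-fold higher in the MO injected sample, where 11.3% of 8110 measured genes were. They were Klhl36, Klhl1 and Klhl22. Lower by at least 2-fold were 2 members, Klhl25 and Klhl32, where 12.5% of genes were. For all 5 the injected libraries lay on 1 side of the control libraries; 7.29% of genes were at least 2-fold higher in this way and 10.4% lower. At any size 4 members lay higher without overlap, where 19.2% of genes did, and 3 lower, where 21.3% did. The family's median log2 ratio was 0.04 and that of all measured genes 0.03; the family's was -0.20 with scaling by total counts and -0.11 with DESeq2 size factors. With total counts, 2 of 13 measured members were higher, where 8.71% of genes were, and 2 lower, where 15.4% were. With DESeq2 size factors 2 of 13 were likewise higher (10.5% of genes) and 2 lower (12.9%). In both, Klhl36, at 10.1 CPM in the MO injected sample with TMM, was under 10 CPM and no longer measured. Single libraries moved the counts. Without MO control library 1, 5 of 16 members were lower (18.3% of genes were), and without MO injected library 1, 5 of 13 (13.9% of genes). Without MO injected library 2, 5 of 15 members were higher (15.3% of genes). Without MO injected library 1 the family's median was -0.59.

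Klhl25 had the largest difference. Its protein is reported in human cells to bring CUL3 to the translation repressor 4E-BP1 and to the lipid synthesis enzyme ACLY, and the gene lies on chromosome 7 from 75848310 to 75874131, on the plus strand of mm10. It stood at 0 and 2.62 CPM in the MO injected libraries, against 16.8 and 19.6 CPM in the MO control libraries. The log2 ratio was -3.87 (95% interval -4.67 to -3.40). The 24 counts left in the injected sample all came from library 2. Without MO injected library 1 the log2 ratio was -2.73, and without library 2 Klhl25 was at least 79.8-fold lower. Klhl32 differed less, at 9.57 and 10.2 CPM in the MO injected against 18.5 and 29.1 CPM in the MO control libraries (log2 ratio -1.15, interval -1.41 to -0.91). Its ratio was -0.85 without MO control library 2.

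On the higher side, Klhl36 stood at 11.3 and 8.19 CPM in the MO injected libraries against 0 and 3.62 CPM in those of the MO control. The log2 ratio was 2.76 (interval 2.21 to 3.55), resting on 22 control counts. It was 1.47 without MO control library 1, and without MO control library 2 Klhl36 was at least 31.7-fold higher. Klhl22, an adaptor that removes the mitotic kinase PLK1 from kinetochores in human cells, stood at 33.2 and 24.2 CPM in the MO injected against 15.5 and 3.78 CPM in the MO control libraries. Its log2 ratio was 1.48 (interval 1.25 to 1.75), and 2.96 and 0.97 without MO control libraries 1 and 2. Klhl1, an actin-binding member known from neurons, stood at 18.2 and 5.02 CPM in the MO injected against 3.15 and 4.60 CPM in the MO control libraries. Its log2 ratio of 1.80 (interval 1.42 to 2.27) was 0.39 without MO injected library 1.

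Klhl8 fell just short of the 2-fold mark. It had 1250 and 876 CPM in the MO injected libraries against 537 and 672 CPM in the MO control libraries, without overlap, for a log2 ratio of 0.94 (interval 0.91 to 0.98) that passed 2-fold without MO control library 2 (1.08) or without MO injected library 2 (1.05) and was 0.54 without MO injected library 1. The Aurora B adaptors differed little or unevenly. Klhl9 had 247 and 182 CPM in the MO injected against 274 and 194 CPM in the MO control libraries (log2 ratio -0.08), and Klhl13 had 194 and 63.0 CPM against 109 and 141 CPM (0.25). Both overlapped, and without MO injected library 1 the ratio of Klhl13 was -0.98. Klhl12, which helps the COPII coat form large secretory carriers in human cells, had 50.6 and 6.99 CPM in the MO injected against 24.9 and 38.1 CPM in the MO control libraries. Its injected libraries lay on either side of the controls, and the log2 ratio of 0.16 was -2.11 without MO injected library 1.

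The other 5 measured members lay within 2-fold. Klhl24, mutated in an inherited skin fragility in humans, was at 16.2 and 25.5 CPM in the MO injected against 29.8 and 26.8 CPM in the MO control libraries (log2 ratio -0.45), both lower. Klhl2, an actin-binding member that also targets WNK kinases, was at 138 and 109 CPM against 117 and 113 CPM (0.18). Klhl15, reported to target a regulatory subunit of the phosphatase PP2A, was at 79.7 and 55.6 CPM in the MO injected against 95.4 and 61.3 CPM in the MO control libraries (-0.18). These 2 overlapped between groups. So did Klhl28, at 56.4 and 42.2 CPM in the MO injected against 130 and 20.1 CPM in the MO control libraries (-0.71), where the gap between control libraries was wider than that between groups. Klhl20, whose substrates include the kinases DAPK1 and ULK1, was at 9.11 and 3.27 CPM in the MO injected against 7.50 and 17.4 CPM in the MO control libraries (-0.71). With a library left out, the ratio ran from -1.31 to 1.37 for Klhl28 and from -1.78 to -0.11 for Klhl20.

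**Figure D3:**
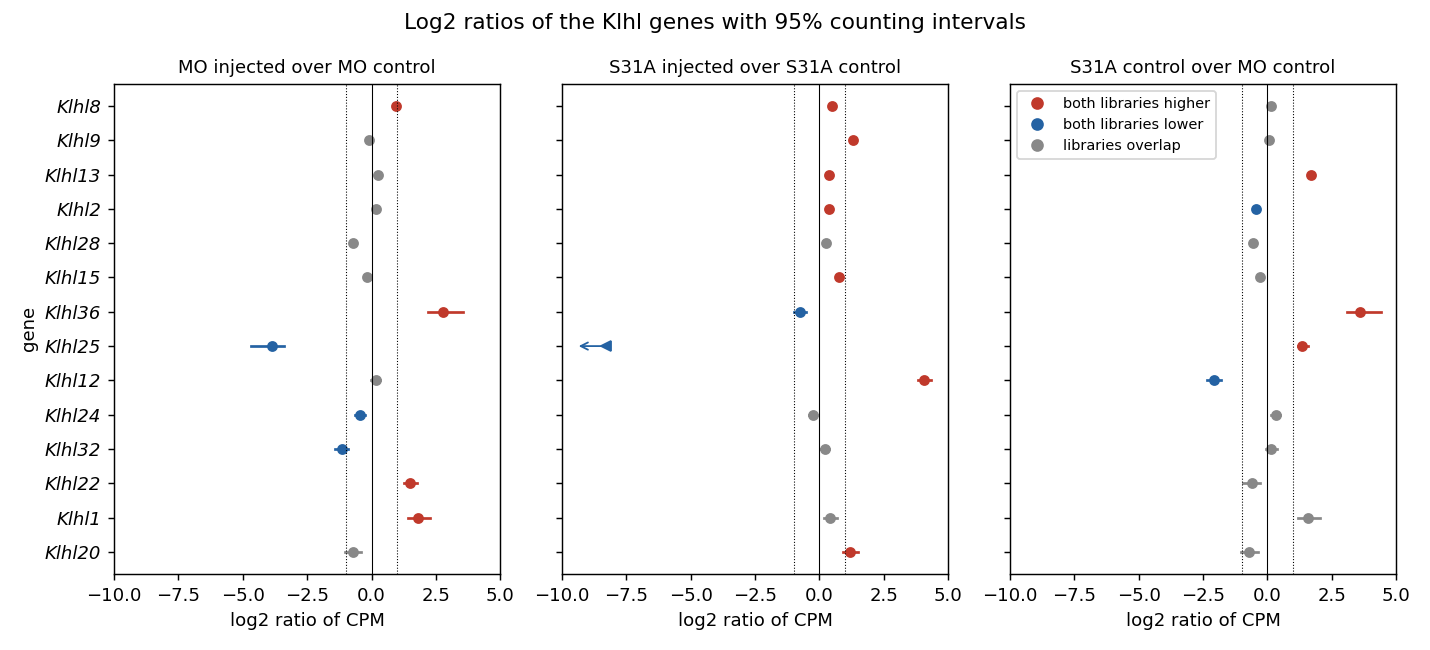
Log2 ratio of CPM for the measured Klhl genes in 3 comparisons of samples, with 95% counting intervals as lines and dotted lines at 2-fold. Red marks genes whose libraries all lay higher in the first-named sample and blue all lower; grey marks overlap. Klhl25 is at its lower bound of 312-fold in the middle panel, drawn as an arrow, and Klhl12 is the highest there.

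The S31A comparison addresses zygotes given the mutant histone. Of the 13 measured members, 3 were at least 2-fold higher in the S31A injected sample, Klhl12, Klhl9 and Klhl20, where 14.1% of 8191 measured genes were. Klhl25 alone was at least 2-fold lower, where 16.2% of genes were. The libraries of these 4 did not overlap; 9.19% of genes were at least 2-fold higher without overlap and 11.4% lower. At any size the injected libraries lay above the controls for 7 members, where 19.8% of genes did, and below for Klhl25 and Klhl36, where 19.8% did. The family's median log2 ratio was 0.38, also with Klhl25 at its bound, and that of all measured genes 0.02. Without S31A injected library 1, 6 of 16 measured members were higher (15.2% of genes were) and 2 lower (20.8%). Without S31A injected library 2, 2 of 15 were lower (21.1% of genes). Without S31A control library 1 the lower members were 3 of 15 (18.6% of genes), and without S31A control library 2 they were 3 of 16 (18.7%).

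Klhl12 had the largest difference on the higher side. It stood at 156 and 64.4 CPM in the S31A injected libraries, against 11.5 and 2.55 CPM in the S31A control libraries, a log2 ratio of 4.06 (interval 3.84 to 4.32). Both groups were uneven, and the ratio ran from 3.16 without S31A injected library 1 to 5.47 without S31A control library 1. Klhl9 was the steadiest, at 613 and 590 CPM in the S31A injected against 212 and 277 CPM in the S31A control libraries (log2 ratio 1.30, interval 1.25 to 1.35). The lowest and highest values with a library left out were 1.15 and 1.55. Its relative Klhl13 had 492 and 473 CPM in the S31A injected against 470 and 290 CPM in the S31A control libraries. The log2 ratio of Klhl13 was 0.36 (interval 0.32 to 0.41), and 0.09 without S31A control library 2. Klhl20 had 16.5 and 14.1 CPM in the S31A injected against 9.16 and 4.48 CPM in the S31A control libraries (log2 ratio 1.19, interval 0.91 to 1.49). Without S31A control library 2 its ratio was 0.79, under 2-fold, and without S31A control library 1 it was 1.79.

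Klhl25 had 0 counts in both S31A injected libraries, against 298 and 687 counts, or 27.8 and 60.4 CPM, in the S31A control libraries. Set against a floor of 3 counts in the summed injected sample, it was at least 312-fold lower. The bound was 415-fold without S31A control library 1 and 189-fold without S31A control library 2, and 143-fold and 178-fold without S31A injected libraries 1 and 2. The family was proposed with this absence known, so the shares that follow are background and no support for it. They cover every gene past the stated level, not genes of the level of Klhl25. Of 5917 genes at 10 CPM or more in both S31A control libraries, 16 had 0 counts in both injected libraries (0.27%). In the other direction, 25 of 5767 genes at 10 CPM or more in both injected libraries had 0 counts in both controls (0.434%). In MO zygotes, 2 of 6676 genes at 10 CPM or more in both control libraries had 0 counts in both injected libraries (0.03%).

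The remaining members lay within 2-fold in the summed samples. Klhl8 had 1008 and 731 CPM in the S31A injected against 673 and 599 CPM in the S31A control libraries (log2 ratio 0.48). Klhl15 had 86.4 and 138 CPM against 58.9 and 70.4 CPM (0.76), and Klhl2 had 118 and 90.0 CPM against 74.6 and 87.8 CPM (0.38). These 3 did not overlap, although the gap for Klhl2 was narrow. Without S31A injected library 1 the ratio of Klhl15 was 1.04. Klhl36 was lower, at 8.95 and 13.0 CPM in the S31A injected against 17.7 and 18.6 CPM in the S31A control libraries (log2 ratio -0.75, and -1.04 without S31A injected library 2). Klhl24 had 42.9 and 11.2 CPM against 49.5 and 20.2 CPM (-0.25), and Klhl28 had 64.7 and 70.2 CPM against 94.1 and 19.9 CPM (0.27). Klhl32 had 19.8 and 38.6 CPM against 11.6 and 36.6 CPM (0.21), and Klhl1 had 17.0 and 11.6 CPM against 0.654 and 20.5 CPM (0.42). The last 4 overlapped between groups, and single libraries carried each past 2-fold. The ratio of Klhl24 was -1.65 without S31A injected library 1, and that of Klhl28 was 1.78 without S31A control library 1. Without S31A control library 2 the ratio was 1.32 for Klhl32 and 4.28 for Klhl1. Klhl22, under 10 CPM in both summed samples, had 10.9 and 0 CPM in the S31A injected and 0 and 13.2 CPM in the S31A control libraries, so each sample had it in 1 library.

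**Figure D4:**
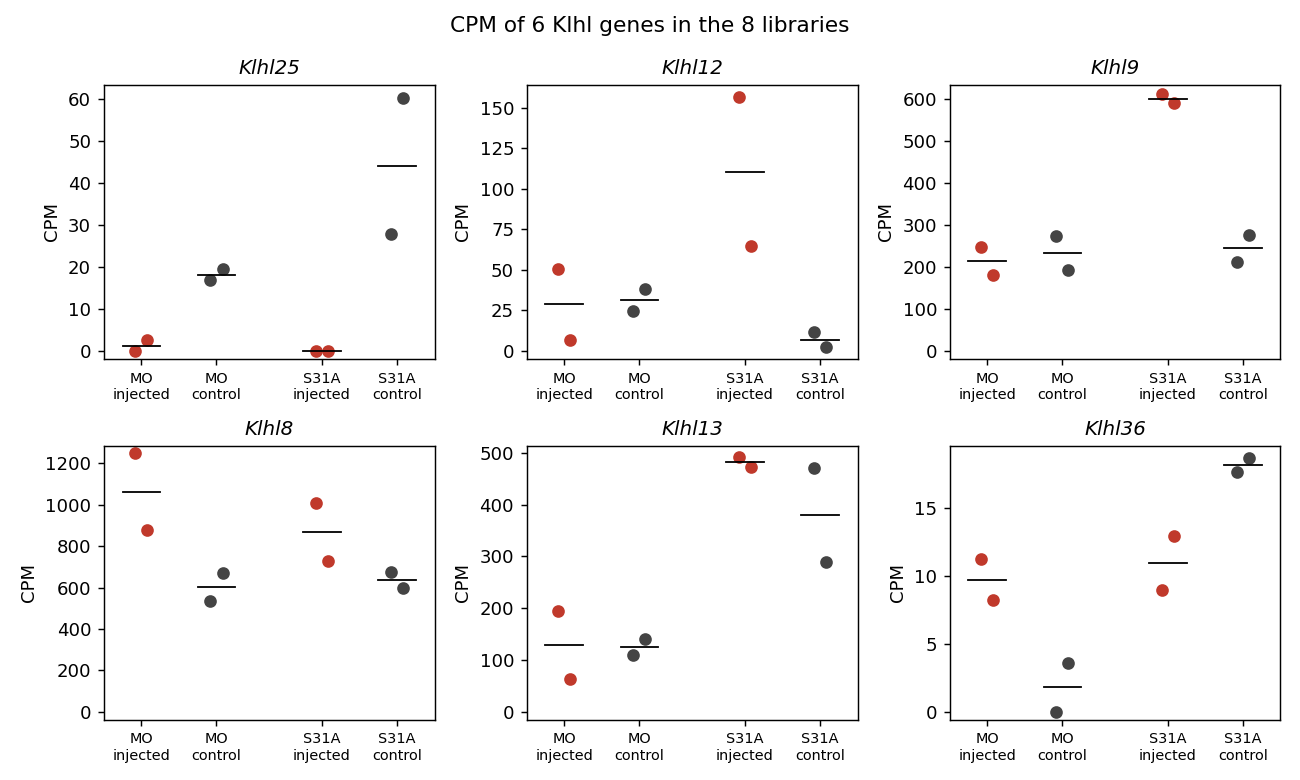
CPM of 6 Klhl genes in each library (points) with the mean of the 2 libraries (bars), on linear axes. Red marks injected and grey control zygotes. Klhl25 is at 0 to 2.62 CPM after both injections, the S31A injected libraries are the highest 2 for Klhl12 and Klhl9, and the MO control libraries are the lowest 2 for Klhl36.

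The 2 experiments had separate controls, so their ratios can be set side by side. Of the 13 members measured in both, 5 had ratios above 0 in both, 2 below 0 in both (Klhl25 and Klhl24), and 6 had opposite signs. The shares of all genes with these signs are not given here, so the counts are a description only. Klhl25 was the only one at least 2-fold apart in the same direction in both. Of 7320 genes measured in both experiments, 113 were at least 2-fold lower without overlap of libraries in both (1.54%), and 61 were higher (0.833%). The difference between the ratios of the 2 experiments was not tested for any member.

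The control samples also differed from each other. In the S31A control, 4 of 14 members were at least 2-fold higher than in the MO control (13.6% of 8266 genes were) and Klhl12 alone was lower (16.2% of genes were). Without overlap of libraries 3 members were at least 2-fold higher (9.67% of genes were) and 1 lower (14.5%), and at any size 3 members lay higher (21.2% of genes did) and 2 lower (25.2%). The lower members were 2 of 16 without S31A control library 2 (21.9% of genes), 3 of 15 without S31A control library 1 (20.5%), 3 of 15 without MO control library 1 (19.0%) and 3 of 13 without MO control library 2 (16.7%). Klhl13 had 470 and 290 CPM in the S31A control against 109 and 141 CPM in the MO control libraries (log2 ratio 1.69, interval 1.61 to 1.76). Its ratios of injected over control were smaller, at 0.25 with MO, where libraries overlapped, and 0.36 with S31A. Klhl36 had 17.7 and 18.6 CPM in the S31A control against 0 and 3.62 CPM in the MO control libraries (3.61, interval 3.09 to 4.40). That ratio was 2.32 without MO control library 1, and without MO control library 2 Klhl36 was at least 57.8-fold higher. Klhl25 had 27.8 and 60.4 CPM in the S31A control against 16.8 and 19.6 CPM in the MO control libraries (1.36, interval 1.18 to 1.57). The ratio of Klhl25 was 0.64 without S31A control library 2. Klhl12 had 11.5 and 2.55 CPM in the S31A control against 24.9 and 38.1 CPM in the MO control libraries (-2.06, interval -2.35 to -1.81). Leaving out S31A control library 1 gave Klhl12 a ratio of -3.46, and leaving out library 2 gave -1.37. The S31A injected sample was set against that same S31A control. Klhl1 had a log2 ratio of 1.57 for S31A control over MO control, with overlapping libraries. Its ratio was -2.26 without S31A control library 2, which held 233 of its 240 counts in that sample.

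Across all 28 pairs of the 8 libraries, 12 to 18 members were measured per pair. Between libraries of 1 sample, 35.7% to 58.8% of them were at least 2-fold apart, against 24.7% to 41.0% of genes. Between an injected library and a library of its own control, the shares were 33.3% to 66.7% of members and 24.1% to 47.0% of genes. The ranges overlapped. The pairs from 1 sample stood at 35.7%, 35.7%, 41.2% and 58.8% of members. Of the 8 pairs of injected and control libraries, 7 lay above the lowest 3 of these. Only those at 61.1% and 66.7% lay above the highest, which was the pair of S31A control libraries. For all genes, the pairs from 1 sample stood at 24.7%, 39.8%, 40.4% and 41.0%. The S31A pairs of injected and control libraries lay above these, at 41.7% to 45.4% of genes. So did MO control library 2 with MO injected library 1 (47.0%), while the other such MO pairs lay under 39.8%. The members' share exceeded that of all genes in 24 of the 28 pairs, which share libraries and are not independent. With the filter of 10 CPM set on the summed sample instead, the members' share lay above that of genes only in the control samples. There 3 of 12 members were 2-fold apart between MO control libraries (19.6% of genes) and 5 of 11 between S31A control libraries (32.9%). In the MO injected sample 3 of 11 were (33.7%), and in the S31A injected sample 2 of 12 (33.3%).

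**Figure D5:**
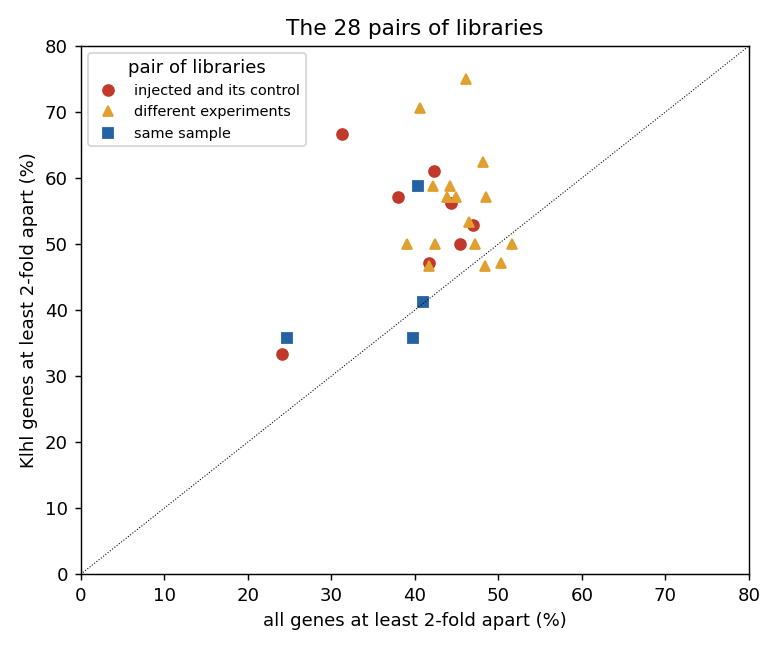
Share of Klhl genes (vertical) and of all measured genes (horizontal) that were at least 2-fold apart in each of the 28 pairs of libraries, in percent. Red circles are an injected library with a library of its control, orange triangles are pairs from different experiments and blue squares pairs from 1 sample. Blue squares lie within the vertical range of the red circles.

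The rest of the CUL3 machinery was measured from lists of genes outside the family. For scale, the MO comparison put 11.3% of all measured genes past 2-fold upward and 12.5% downward. The S31A comparison put 14.1% upward and 16.2% downward. Most lists are short, and their counts here and in the following paragraphs were not tested against these shares. Of 14 genes of the CUL3 core and neddylation pathway, 12 were measured; 2 were at least 2-fold higher and none lower with MO, and none higher and 1 lower with S31A (medians 0.18 and -0.03). The scaffold gene Cul3 had 43.4 and 19.5 CPM in the MO injected against 28.8 and 28.1 CPM in the MO control libraries. With S31A it had 109 and 45.2 CPM in the S31A injected against 34.6 and 78.2 CPM in the S31A control libraries. It overlapped in both experiments. Rbx1, the RING subunit, had 11.9 and 15.1 CPM in the MO injected against 17.7 and 29.9 CPM in the MO control libraries (log2 ratio -0.72), and a ratio of 0.11 with S31A. The higher genes with MO were Dcun1d2 (1.15) and Dcun1d3 (1.27), which help attach NEDD8 to cullins. Dcun1d3 was also the lower gene with S31A (-1.43), at 9.72 and 2.78 CPM in the S31A injected against 37.4 and 0 CPM in the S31A control libraries, which overlap.

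In the COP9 signalosome, 1 of 8 measured genes was higher with MO (Cops8, 1.18) and 1 of 9 lower with S31A (Cops3, -1.84), with medians of 0.31 and -0.57. Cops3 stood at 7.25 and 7.49 CPM in the S31A injected against 34.0 and 19.8 CPM in the S31A control libraries. In the MO control libraries it stood at 9.67 and 9.70 CPM. The controls differed in this list too, with a median of 0.82 for S31A control over MO control. At least 2-fold higher in the S31A control were 4 of 9 genes, Cops3 and Cops8 among them, where 13.6% of all measured genes were. Among other cullins and their RING partner, 1 of 6 was higher with MO (Cul4a, 1.87) and none of 5 passed 2-fold with S31A.

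The BTB-Kelch genes with other names included Keap1, the adaptor that holds down the stress factor NRF2. Of these, 1 of 6 measured was higher with MO and 4 of 8 with S31A, and none was lower in either. Their median was 0.01 with MO and 1.06 with S31A. Keap1 stood at 12.4 and 17.4 CPM in the MO injected against 8.04 and 3.12 CPM in the MO control libraries (log2 ratio 1.29), and at 10.3 and 19.6 CPM in the S31A injected against 2.34 and 3.87 CPM in the S31A control libraries (2.18). Ipp, at 96.9 and 93.9 CPM in the S31A injected against 31.2 and 48.3 CPM in the S31A control libraries (1.26), was the other without overlap.

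CUL3 adaptors without Kelch repeats had 2 of 10 higher with MO (Kctd5, 1.17, and Rhobtb3, 3.09, at 14.1 and 6.55 CPM in the MO injected against 1.09 and 1.48 CPM in the MO control libraries). With S31A, 1 of 10 was higher and 1 lower (Rhobtb2, -1.45). Among 17 reported substrates and partners, 11 were measured in each experiment, and 1 was higher with MO (Ppp2r5b, 1.61) and 1 lower with S31A (Pef1, -2.90). Pef1 encodes a calcium-binding partner of KLHL12. It had 0 and 5.67 CPM in the S31A injected against 25.9 and 13.3 CPM in the S31A control libraries. Of the reported Klhl25 substrates, Acly had 103 and 55.1 CPM in the MO injected against 74.4 and 37.5 CPM in the MO control libraries. It had 70.9 and 45.2 CPM in the S31A injected against 59.2 and 110 CPM in the S31A control libraries, and overlapped in both experiments. Eif4ebp1 was under 10 CPM throughout.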

How the data were processed

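The authors deposited raw counts per gene for 55291 features, whole numbers with no normalization, and gene lengths in bases, per the file headers. Per the labels' protocols, PCR-amplified cDNA from total RNA went into an NEBNext Ultra II library kit. FastQC, Bowtie2, featureCounts, DESeq2 and mm10 are named per the submitters' processing notes. Versions, the strand setting and the handling of multi-mapping reads are not given in the sources used here. Because Bowtie2 aligns without introns, reads over exon junctions can be lost.

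Each of the 4 samples had 2 count columns, and no column was left out. The 2 libraries of a sample differed by a chi-square of 51.5 to 130.0 per degree of freedom, so they were not copies. Nothing says whether they came from separate pools of embryos. They were summed per sample, and with 1 sample per group no test was made. CPM used edgeR 4.0.16 TMM factors (R 4.3.3). Log2 ratios used a prior count of 2 and were taken where either sample reached 10 CPM. Intervals are exact (Clopper-Pearson) on the share of a gene's counts and, like the floor of 3 counts, cover counting error only, since PCR copies cannot be told from molecules. The ratio calculation was also run on simulated counts with counting error only. Those lack the further spread between libraries seen here, so that run checks the arithmetic and not the reported ratios. Coordinates of all 36 members equalled GENCODE M21, and alignments used BLAST+ 2.17.0.

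All members at 10 CPM or more in a sample were named. From other lists, up to 4 genes at least 2-fold apart without overlap of libraries were named, with Cul3, Rbx1, Keap1 and H3f3b. Other genes named with values were chosen after those were seen. The values of 1 listed gene are not reported here. Members and lists were chosen with earlier results of these data known. Alternatives were scaling by total counts or DESeq2 1.42.0 size factors, filters of 1 and 50 CPM or none, a prior count of 0.5 and leaving out each library.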

Additional observations from a re-analysis of the deposited data

Results flagged for a closer look

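Klhl36 differed in opposite directions in the 2 experiments, with no overlap of libraries in either. Its log2 ratio was 2.76 for MO injected over MO control and -0.75 for S31A injected over S31A control. The difference between these ratios was not tested. Of measured genes, 19.2% lay higher without overlap with MO and 19.8% lower with S31A, and the share that did both is not given here. The MO ratio rested on 22 control counts. With total counts or DESeq2 size factors, Klhl36 was under 10 CPM in the MO comparison and no longer measured there. Its injected libraries lay between 8.19 and 13.0 CPM in both experiments, while the S31A control libraries lay at 17.7 and 18.6 CPM and the MO control libraries at 0 and 3.62 CPM.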

How the results depend on the processing

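Scaling by total counts or by DESeq2 size factors and a prior count of 0.5 left each count of members at least 2-fold apart within 1.5 times and each family median within its SD over the 4 pairs of libraries across the 2 samples compared. With total counts the median of all genes was -0.09 with MO, against 0.03 with TMM, and -0.09 with S31A, against 0.02. Counts moved with the filter on low values, which changes how many genes are measured. With MO at 1 CPM, 7 of 22 measured members were higher (16.7% of genes were) and 5 lower (24.3%); at 50 CPM 0 of 6 were higher (8.67%) and 0 lower (7.03%); with no filter 7 of 25 were higher (16.3%) and 8 lower (29.0%). With S31A at 1 CPM, 6 of 22 were higher (22.3%) and 3 lower (23.7%). At 50 CPM 2 of 7 were higher (8.02%) and 0 lower (7.38%). With no filter 6 of 25 were higher (23.7%) and 4 lower (24.0%). Between controls at 1 CPM, 7 of 21 were higher (17.2%) and 3 lower (29.0%); at 50 CPM 1 of 6 was higher (8.25%) and 0 lower (10%); with no filter 8 of 25 were higher (15.2%) and 5 lower (35.7%). With all libraries 3 members were higher and 2 lower with MO, 3 and 1 with S31A, and 4 and 1 between controls. Leaving out each library in turn gave 2 to 5 and 2 to 5 of 12 to 16 with MO. It gave 4 to 6 and 2 to 3 of 15 or 16 with S31A, and 4 to 5 and 2 to 3 of 13 to 16 between controls. Of all genes, 7.96% to 16.8% were then higher and at most 22.7% lower with MO. With S31A 15.2% to 20.4% were higher and 18.6% to 21.1% lower, above 14.1% and 16.2% with all libraries. Between controls 15.9% to 17% were higher and 16.7% to 21.9% lower, above 13.6% and 16.2%. With a library left out, the family medians ran from -0.59 to 0.22 with MO, 0.27 to 0.54 with S31A and 0.12 to 0.26 between controls. The ratio of Klhl1 between controls ran from -2.26 to 2.44, and the value of -2.26 came from leaving out S31A control library 2; the cause was not tested. With a filter of 50 CPM the family's median between controls was -0.10, against 0.12. Of 123 ratios of named members recomputed with another scaling or prior count, 110 stayed inside the main interval; of 164 recomputed without a library, 44 did. Where a member had 0 counts, as Klhl25, Klhl36 and Klhl22 had in single libraries, depth sets the bound that can be given. No paired analysis was possible because no result comes from a test and the labels give 1 sample per group.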
